A study of Macaca fascicularis with 23 samples.

Results

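Liver gene expression of cynomolgus monkeys (Macaca fascicularis) given ciprofibrate, 400 mg/kg/day, over 15 days was compared with that of monkeys given vehicle for the same time. The arrays were chosen by their titles: 4 treated and 3 vehicle animals, 7 of the 23 arrays of the series. Each array held liver RNA of a different animal, taken from the right lateral lobe. The other arrays came from animals at 3, 30 and 150 mg/kg/day for 15 days (4 each) and, at 4 days, from 2 vehicle and 2 treated animals (400 mg/kg/day). All doses at 15 days were set against the same 3 vehicle animals, while the 4-day comparison had its own controls.

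Ciprofibrate is a fibrate, a lipid-lowering drug and an agonist of PPAR-alpha, a nuclear receptor. This receptor pairs with RXR on DNA and, in hepatocytes, switches on genes for the uptake, binding, transport and oxidation of fatty acids in mitochondria and peroxisomes and for the making of ketone bodies. In rats and mice fibrates also enlarge the peroxisome compartment and the liver, a response that is much weaker in primates.

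The array carried probe sets designed on human transcripts, each a group of short probes for 1 transcript. A monkey sequence difference can lower a probe set's signal, so the level of 1 gene was never set against that of another. Intensity is the summarised brightness of a probe set on a linear scale, and differences were taken on the log2 scale after adding 16, which understates the change of dim genes. Of 12558 probe sets 7535 were bright enough to be tested, with a mean intensity of at least about 39.7, and they represented 5462 genes. A probe set or gene was called at an adjusted p under 0.05. Intensities are given in the order of the replicate numbers, which only name the animals, and ± after a log2 difference is its standard error (n = 4 treated and n = 3 vehicle). A number in brackets that follows a log2 difference with no other label is its adjusted p.

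Medians of the 23 arrays ran from 55.0 to 71.5. They were 59.5, 63, 55 and 59.7 in treated and 66.95, 63.4 and 61.5 in vehicle animals. The mean correlation with the other arrays of the own group was 0.907 to 0.912 for treated and 0.870 to 0.890 for vehicle animals. With the treated arrays, the vehicle animals correlated at 0.851 to 0.885. For ACTB the 5' over 3' signal, which falls as RNA degrades, averaged 0.574 ± 0.0334 in the 3 vehicle and 0.681 ± 0.126 in the 4 treated animals (SD; two-sided exact permutation p = 0.229). For GAPDH it was 1.06 ± 0.304 and 1.11 ± 0.123 (exact permutation p = 0.857). Of 12 hepatocyte markers looked for, 11 were represented and 0 were too dim to be tested. The other had no probe set that named it alone. Albumin (ALB), the defining hepatocyte product, read 21937, 23459 and 25148 in vehicle and 21821, 22397, 23939.6 and 26283 in treated animals, a difference of 0.00 ± 0.23. This is its brightest probe set, and the mean of all its tested probe sets stood lower, as given with the processing settings below.

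The treated livers had higher signals for some genes that take up, carry and oxidise fatty acids, for desaturases and an elongase, and for some quinone and aldehyde reductases and proteasome subunits. They had lower signals for the ethanol-oxidising CYP2E1, for the IGF1 complex of plasma, for some clotting, complement and protease inhibitor genes and for several early response genes. Of the 5462 genes 117 were called (2.14%): 66 rose (1.21%) and 51 fell (0.934%). At this share a short list can hold 0 calls without differing from the rest. Of the 7535 probe sets 161 were called (2.14%): 95 rose (1.26%) and 66 fell (0.876%), and 26 of the called probe sets had no single gene name. The median difference over all genes was -0.03, the background for counts of list members above or below 0. Over all probe sets it moved from -0.03 to 0.07 once arrays were brought to a common median, so such counts depend on the scaling. Of the called genes 44 rose and 32 fell by more than 1 on the log2 scale, and the smallest called changes were 0.61 for PSMD2 and -0.59 for EXT1.

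In all 66 genes that rose, the lowest treated animal lay above the highest vehicle animal. The same held the other way for 50 of the 51 that fell, HES1 being the exception. These genes were called on the same animals, so such separation follows largely from the call and is no further support. Over all genes tested, 6.9% had treated animals wholly above and 6.85% wholly below vehicle. Separated groups of the genes named below are likewise only a description. The counts moved with single animals: the 95 higher probe sets came to 54 without 400 mg/kg/day replicate 1 and 60 without vehicle replicate 1. The 66 lower ones came to 33, 40 and 42 without vehicle replicate 1, 400 mg/kg/day replicate 1 and vehicle replicate 2. Rises made up 59.0% of the calls, and 73.2% after arrays were brought to a common median.

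**Figure D1:**
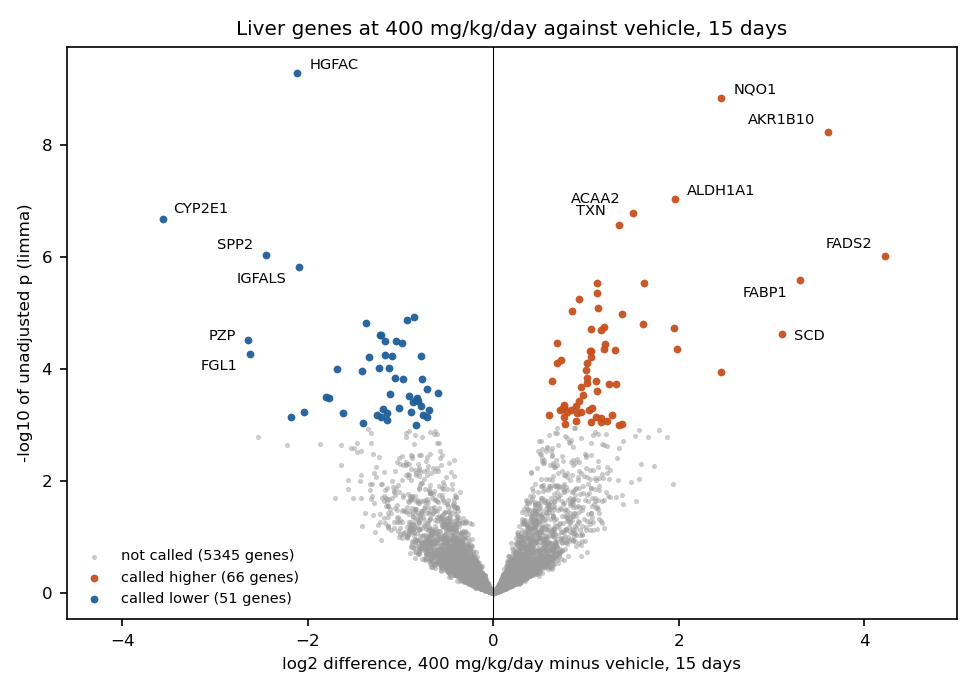
Each point is 1 of the 5462 genes, with its log2 difference (400 mg/kg/day minus vehicle, 15 days) on the horizontal axis and -log10 of its unadjusted limma p on the vertical axis. Orange points are the 66 genes called higher and blue points the 51 called lower; NQO1, AKR1B10 and HGFAC stand highest.

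The genes that bring fatty acids into hepatocytes and bind them were led by FABP1, the liver fatty acid binding protein. Its intensity was 673, 1264 and 1548 in the 3 vehicle animals and 12948, 12258, 8308 and 10953 in the 4 treated animals. Every treated animal was more than 5 times above the highest vehicle animal, and the log2 difference was 3.30 (adjusted p = 0.000928). SLC27A2, which imports very long chain fatty acids and links them to coenzyme A, stood at 269.5, 297 and 581 against 909, 792, 890.4 and 1028, a rise of 1.28 ± 0.33 (adjusted p = 0.0358). All treated animals were above all vehicle animals. Of 11 genes of fatty acid uptake, binding and activation that were represented, these 2 rose, 0 fell and 9 were not called, with a median of 0.25. The acyl-CoA binding protein DBI (0.74 ± 0.23, adjusted p = 0.104) and the acyl-CoA synthetase ACSL1 (0.56 ± 0.27, adjusted p = 0.4) missed the threshold, although their groups did not overlap.

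Long chain fatty acids enter mitochondria as carnitine esters, and 2 carriers of that route rose. SLC22A5, which takes carnitine into the cell, read 147, 112 and 293 in vehicle and 1201, 503, 818 and 539 in treated animals (1.98 ± 0.39, adjusted p = 0.00577). Treated replicates 1 and 3 were higher than replicates 2 and 4, and all were above vehicle. SLC25A20, which carries acylcarnitines across the inner mitochondrial membrane, read 78.8, 145 and 109 against 194, 214, 327 and 259 (1.07 ± 0.26, adjusted p = 0.0316). CPT1A, the enzyme that makes the carnitine esters, was not called (0.48 ± 0.39, adjusted p = 0.712). Its vehicle animals read 44.7, 147 and 183 and its treated animals 129.7, 171, 169.8 and 169, and the groups overlapped. Without vehicle replicate 1 the difference of CPT1A was -0.040. The other 2 genes of this list, BBOX1 and CRAT, were below 0 and not called. When 1 animal was left out, calls ended for SLC27A2 in every fit but that without vehicle replicate 3 (adjusted p up to 0.211), SLC22A5 without vehicle replicate 2 (adjusted p = 0.0512) and SLC25A20 in every fit but those without vehicle replicate 2 or 400 mg/kg/day replicate 1 or 2 (adjusted p up to 0.197).

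Mitochondrial beta-oxidation shortens acyl-CoA chains in a cycle of dehydrogenase, hydratase, dehydrogenase and thiolase steps. All 15 represented genes of this list were above 0, with a median of 0.86. Of these 6 rose, 0 fell and 11 had treated animals wholly above vehicle, beside 1.21%, 0.934% and 6.9% of all genes. ACAA2, the thiolase that closes the cycle, stood at 2814, 3440.1 and 5338 in vehicle and 10763, 9375, 11416 and 11151 in treated animals (1.51 ± 0.20, adjusted p = 0.000141). The treated animals lay close together, and the lowest was well above the highest vehicle animal. The trifunctional protein, which joins the last 3 steps for long chains, has 2 subunits that rose together. Its beta subunit HADHB read 1234, 2470.4 and 3183 against 7100.3, 7436, 6346 and 5533 (1.61 ± 0.29, adjusted p = 0.00316). Its alpha subunit HADHA read 496, 443 and 798 against 1416, 1341, 1376 and 1003 (1.16 ± 0.22, adjusted p = 0.00366). In RefSeq's annotation of the macaque assembly T2T-MFA8v1.1 these 2 genes lie on chromosome 13. Ordered by start position alone, 1 other protein-coding gene came between them.

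ETFA, a subunit of the flavoprotein that takes electrons from the first dehydrogenases, read 957, 1424 and 1449 in vehicle and 3432, 2582, 2642 and 2394 in treated animals (1.11 ± 0.18, adjusted p = 0.000953). ECHS1, the short chain hydratase, read 348, 519 and 431 against 819, 908, 957 and 655 (0.93 ± 0.22, adjusted p = 0.0261). Both sets of treated animals were separated from vehicle. DECR1, which handles unsaturated chains, read 666, 796 and 695 against 1188, 1224, 1621 and 1363 (0.89 ± 0.23, adjusted p = 0.0422), also with no overlap. ECH1, an isomerase of unsaturated chains found in mitochondria and peroxisomes, also rose (1.01 ± 0.22, adjusted p = 0.0129).

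The medium chain dehydrogenase ACADM (0.69 ± 0.19, adjusted p = 0.052), the flavoprotein dehydrogenase ETFDH (0.82 ± 0.24, 0.0763) and the hydroxyacyl-CoA dehydrogenase HADH (0.70 ± 0.20, 0.0805) missed the threshold, each with separated groups. The very long chain dehydrogenase ACADVL stood at 0.52 ± 0.16 (adjusted p = 0.101). In the 7 fits that each dropped 1 animal, the call was lost for ECHS1 in every fit but those without vehicle replicate 2 or 400 mg/kg/day replicate 4 (adjusted p up to 0.163), DECR1 in all 7 fits (adjusted p up to 0.169) and ECH1 without vehicle replicate 1 or 2 or 400 mg/kg/day replicate 1 (adjusted p up to 0.104). ACAA2, HADHB, HADHA and ETFA kept their calls in all 7 such fits.

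**Figure D2:**
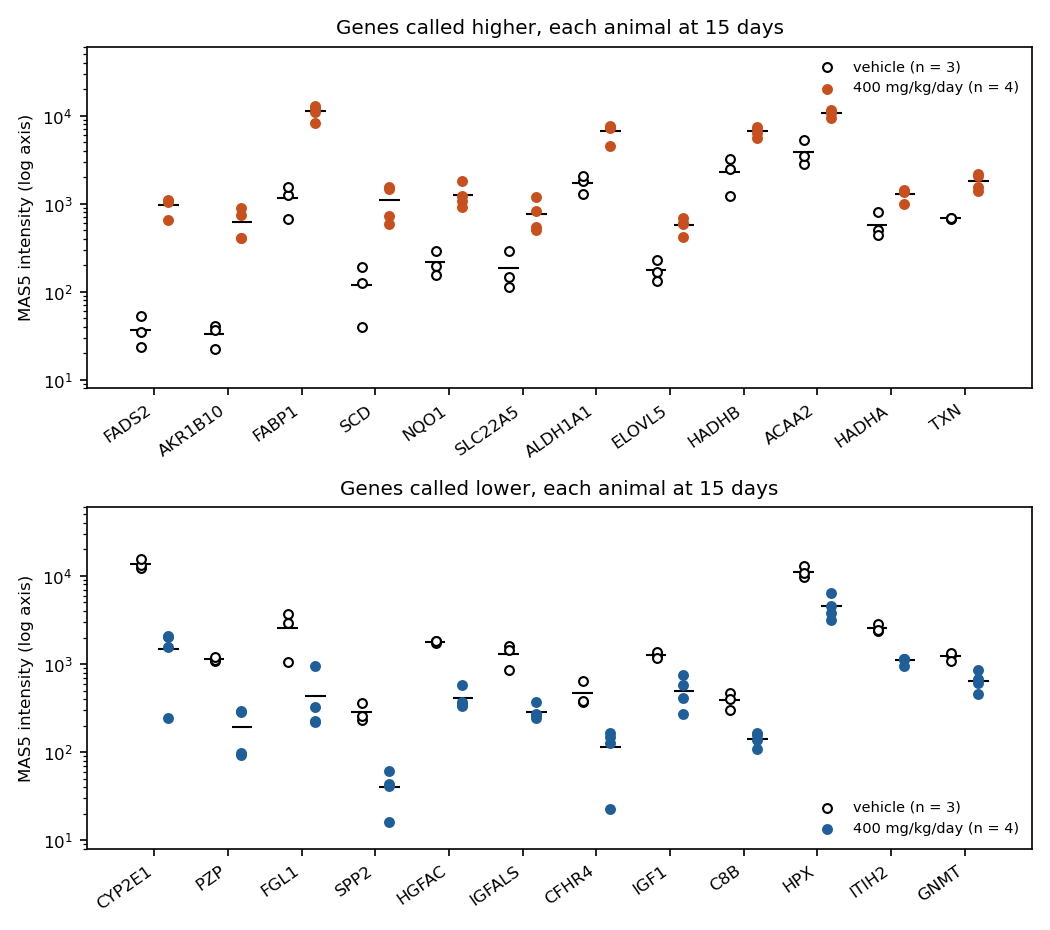
MAS5 intensity on a log axis of 12 genes called higher (upper panel) and 12 called lower (lower panel), with open circles for the 3 vehicle and filled circles for the 4 treated animals at 15 days and a line at each group's mean. In all 24 genes the treated animals lie wholly above or wholly below the vehicle animals.

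Peroxisomes oxidise very long and branched chains. Of 7 represented genes of peroxisomal oxidation 1 rose, 0 fell and 6 were not called, with a median of 0.45. HSD17B4, the bifunctional enzyme of that pathway, read 357, 424 and 620.1 in vehicle and 1007, 771, 1025 and 689 in treated animals (0.90 ± 0.23, adjusted p = 0.0339). The treated animals were separated from vehicle. The peroxisomal thiolase ACAA1 (0.54 ± 0.17, adjusted p = 0.113), the fatty acid transporter ABCD3 (0.91 ± 0.39, 0.308) and catalase, CAT (0.45 ± 0.36, 0.706), were not called. Among 7 represented peroxisome assembly genes 0 were called, beside 2.14% of all genes, and the median was 0.08. EHHADH, the other bifunctional enzyme, was too dim to be tested.

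Of 7 ketone body genes looked for, only 2 were represented and 1 more was too dim to be tested. BDH1, which converts acetoacetate to beta-hydroxybutyrate, rose from 360.2, 584 and 707 to 943, 1035, 1193 and 1197 (1.01 ± 0.23, adjusted p = 0.0148). The other represented ketone body gene was not called. Among 8 represented genes that are textbook PPAR-alpha targets outside oxidation, 0 were called, beside 2.14% of all genes. The pantetheinase VNN1 stood at 1.00 ± 0.31 (adjusted p = 0.107), the lipid droplet coat PLIN2 at 0.93 ± 0.42 (0.342) and the pyruvate dehydrogenase kinase PDK4 at 0.31 ± 0.38 (0.838). The phospholipid transfer protein PLTP was below 0 (-0.61 ± 0.17, 0.06). The receptor gene PPARA read 693, 549 and 612 in vehicle and 479.6, 421, 524 and 419 in treated animals. These groups did not overlap, but the difference of -0.41 ± 0.20 was not called (adjusted p = 0.408). Among 13 represented receptors and coregulators 0 were called, again beside 2.14% of all genes. With 1 animal left out, calls were lost for HSD17B4 in every fit but those without vehicle replicate 3 or 400 mg/kg/day replicate 2 or 4 (adjusted p up to 0.217) and BDH1 without vehicle replicate 1 (adjusted p = 0.15).

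Desaturases put double bonds into fatty acyl chains and elongases lengthen them. Of 6 represented members 3 rose, 0 fell and 3 were not called, with a median of 1.08. FADS2, the delta-6 desaturase of polyunsaturated fatty acid synthesis, read 52.4, 35.1 and 23.5 in vehicle and 1112, 1052, 1075 and 647 in treated animals. SCD, the delta-9 desaturase that makes oleate, read 192, 40 and 125 against 592, 1557, 733 and 1481. In both genes treated animals were many times brighter than vehicle, and the differences were 4.22 and 3.11 on the log2 scale (adjusted p = 0.000403 and 0.00415). The vehicle mean of FADS2 lay below the filter's intensity of 39.7, so the size of its rise is not exact. ELOVL5, the elongase that works next to FADS2 on polyunsaturated chains, read 169, 227 and 131 against 588, 680.2, 417 and 602 (1.63 ± 0.26, adjusted p = 0.000953). These 3 genes kept their calls whichever animal was left out.

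Of 14 represented genes of fatty acid synthesis 1 rose, 0 fell and 13 were not called, with a median of 0.15. ME1, the malic enzyme that supplies NADPH, read 263, 257 and 170.4 in vehicle and 745, 470.4, 604 and 465 in treated animals (1.25 ± 0.28, adjusted p = 0.0154), and its other tested probe set differed by 2.18. The call was lost for ME1 without vehicle replicate 3 or 400 mg/kg/day replicate 1 (adjusted p up to 0.0953). Fatty acid synthase, FASN, had 516, 266 and 175 against 555, 428, 516 and 470.3, groups that overlapped (0.73 ± 0.60, adjusted p = 0.727). The regulator SREBF1 stood at 0.67 ± 0.18 (0.0599), the acetyl-CoA carboxylase ACACB at 0.65 ± 0.21 (0.125) and the isocitrate dehydrogenase IDH1, a further NADPH source, at 0.78 ± 0.22 (0.0629), none of them called. Among 14 genes of triglyceride synthesis, droplets and lipases 0 were called. In cholesterol synthesis and uptake 1 of 18 rose, the sterol dehydrogenase NSDHL, from 284, 179 and 307 to 565, 488, 513 and 589 (1.05 ± 0.21, adjusted p = 0.00675). That call was lost for NSDHL without vehicle replicate 2 (adjusted p = 0.0721).

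Of 17 represented lipoprotein genes 0 were called, with a median of -0.04. The widest difference in this list was that of APOA4, which read 221, 405 and 359 in vehicle and 16.2, 43.0, 78.8 and 44.4 in treated animals. The groups did not overlap, but the difference of -2.54 ± 0.71 missed the threshold (adjusted p = 0.0651). APOA1, the main HDL protein, stood at -0.42 ± 0.19 (0.33) and APOE at -0.79 ± 0.29 (0.203).

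Reductases that detoxify quinones and lipid aldehydes held the calls with the smallest p among the rises. NQO1, the quinone reductase, read 294, 197 and 156 in vehicle and 1819.9, 1208, 1077 and 924 in treated animals (2.46 ± 0.25, adjusted p = 5.45e-06). Every treated animal was more than 3 times above the highest vehicle animal. AKR1B10, which reduces retinal and lipid aldehydes, read 22.4, 41.3 and 36.5 against 903, 407, 405 and 739 (3.61 ± 0.40, adjusted p = 1.12e-05). Its vehicle mean was below the filter's intensity of 39.7, and its treated replicates 1 and 4 were brighter than replicates 2 and 3. These 2 of 12 represented genes of the list rose, 0 fell, and the list's median was 0.50. The bile acid precursor reductase AKR1C4 (1.19 ± 0.35, adjusted p = 0.0808) and the thioredoxin reductase TXNRD1 (0.46 ± 0.23, 0.416) were not called, with separated groups.

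Thioredoxin, TXN, the small dithiol protein that reduces other proteins, read 668, 682 and 690.3 in vehicle and 2143, 1388, 1561 and 2065 in treated animals (1.35 ± 0.19, adjusted p = 0.00017). Vehicle animals were nearly equal, and all treated animals were above them. GPX4, which reduces lipid peroxides in membranes, read 817, 986 and 1368 against 1827, 1410.4, 2441 and 1443 (0.74 ± 0.18, adjusted p = 0.0316). They were the 2 of 15 thioredoxin, peroxide and superoxide genes that rose. Peroxiredoxin PRDX1 had a larger difference than either but missed the threshold (1.57 ± 0.42, adjusted p = 0.0554). Its vehicle animals read 78.8, 85.7 and 71.6 and its treated animals 291, 222, 282 and 267. BLVRB, a flavin and biliverdin reductase, rose in the glutathione, NADPH and haem oxygenase list (0.97 ± 0.23, adjusted p = 0.022). Haem oxygenase itself, HMOX1, was not called (-1.10 ± 0.59, 0.469). When single animals were dropped, the call ended for GPX4 in every fit but those without vehicle replicate 3 or 400 mg/kg/day replicate 2 or 4 (adjusted p up to 0.217) and BLVRB in every fit but those without vehicle replicate 1 or 400 mg/kg/day replicate 2 or 4 (adjusted p up to 0.0923).

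Among 15 represented P450 genes and partners 2 rose and 1 fell, with a median of 0.19. CYP2E1, which oxidises ethanol, acetone and fatty acids, read 12166, 13431 and 15411 in vehicle and 244, 2036, 1545 and 2092 in treated animals. Treated replicate 1 was the lowest by far, and all 4 lay below vehicle by more than 5 times. The fall was 3.56 on the log2 scale (adjusted p = 0.000161), and the gene's other tested probe set differed by -3.02. CYP3A4, the main drug-oxidising P450, read 1803, 2318 and 2065 against 3238, 7651, 7233 and 3801 (1.31 ± 0.26, adjusted p = 0.00577). Its probe set is of a kind that can also bind transcripts of near-identical family members, so the rise may not be of that gene alone. CYB5A, the cytochrome b5 that passes electrons to P450s and desaturases, read 1827, 1239.5 and 952 against 3916, 2312, 3136 and 2808 (1.20 ± 0.24, adjusted p = 0.00577), and its other tested probe set differed by 0.40. The call was lost for CYB5A without vehicle replicate 3 (adjusted p = 0.0529). CYP1A1 stood at -1.71 ± 0.68 and was not called (adjusted p = 0.27), CYP2C8 at 0.74 ± 0.25 (0.145) and CYP2A6 at -0.41 ± 0.19 (0.355).

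ALDH1A1, which oxidises retinal to retinoic acid, was the aldehyde dehydrogenase that rose among 12, from 1279.7, 1791 and 2040.2 to 7457, 7186, 7528 and 4538 (1.96 ± 0.25, adjusted p = 9.96e-05). Treated replicate 4 was the lowest of its group and still above all vehicle animals. RDH16, a retinol dehydrogenase of the same vitamin pathway, fell from 1256, 1169 and 1195 to 559, 691, 436 and 630.1 (-1.06 ± 0.23, adjusted p = 0.0129). The mitochondrial ALDH2, which clears acetaldehyde, stood at -0.58 ± 0.17 (adjusted p = 0.0935) and ALDH6A1 of valine breakdown at -0.80 ± 0.26 (0.136), both with treated animals wholly below vehicle and neither called. The epoxide hydrolase EPHX1 rose by 0.77 ± 0.20 (adjusted p = 0.0457) and the glucuronosyltransferase UGT2B11, whose family is close in sequence, by 1.39 ± 0.25 (0.00259). Refits that each dropped 1 animal ended the call for RDH16 without vehicle replicate 1 or 400 mg/kg/day replicate 3 (adjusted p up to 0.0652) and EPHX1 in all 7 fits (adjusted p up to 0.151).

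The proteasome degrades ubiquitin-tagged proteins, and its catalytic core has beta subunits that carry the protease sites. Of 36 represented proteasome genes 6 rose, 0 fell and 30 were not called, 31 were above 0, and the median was 0.34. All but 1 of the 6 were beta subunits of the core. PSMB3 read 231, 289 and 223 in vehicle and 417, 510.2, 657 and 562 in treated animals (1.06 ± 0.20, adjusted p = 0.00359). The catalytic subunit PSMB5 read 940.0, 842 and 985 against 1632, 1374, 1493 and 1474 (0.69 ± 0.14, adjusted p = 0.00833). PSMB6, another catalytic subunit, read 821, 636 and 666 against 1154, 1106, 1295 and 1144 (0.73 ± 0.15, adjusted p = 0.00761). These rises were small but separated from vehicle. PSMB4 rose by 0.94 ± 0.24 (0.0334) with 0.97 in its other tested probe set, PSMB2 by 0.64 ± 0.14 (0.0143), and PSMD2 of the regulatory cap by 0.61 ± 0.15 (0.0358). In the 7 fits that each dropped 1 animal, the call was lost for PSMB5 without vehicle replicate 2 (adjusted p = 0.0596), PSMB6 without vehicle replicate 2 (adjusted p = 0.0579), PSMB4 in every fit but that without vehicle replicate 1 (adjusted p up to 0.219), PSMB2 without vehicle replicate 1 or 400 mg/kg/day replicate 1 (adjusted p up to 0.0705), and PSMD2 in every fit but those without vehicle replicate 2 or 400 mg/kg/day replicate 3 (adjusted p up to 0.188).

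Oxidative phosphorylation had 3 of 57 represented genes rising and 0 falling, with a median of 0.22. In 17 of them treated animals were wholly above vehicle. Over all genes 1.21% rose and 6.9% were wholly above. COX6A1, a cytochrome oxidase subunit, read 9131, 9090.0 and 8971 in vehicle and 13881, 14398, 16219 and 14071 in treated animals (0.69 ± 0.13, adjusted p = 0.0049). COX5A of the same complex read 390.4, 668 and 641 against 1069, 1280.2, 1409 and 946 (1.05 ± 0.21, adjusted p = 0.00577). The third, the ATP synthase subunit ATP5PF, was at 15.9, 14.8 and 21.0 in vehicle, below the filter's intensity, and at 108, 97.5, 40 and 55.0 in treated animals. COX4I1 missed the threshold (0.88 ± 0.24, adjusted p = 0.0521). MPC2, a subunit of the mitochondrial pyruvate carrier, rose by 1.03 ± 0.26 (0.0321), and GOT2, the mitochondrial aspartate aminotransferase, by 0.84 ± 0.21 (0.0322). Of 19 genes of the TCA cycle and pyruvate dehydrogenase 0 were called. With 1 animal left out, calls were lost for COX5A without vehicle replicate 1 (adjusted p = 0.0741), ATP5PF in every fit but that without 400 mg/kg/day replicate 3 (adjusted p up to 0.156), MPC2 in every fit but those without vehicle replicate 2 or 400 mg/kg/day replicate 2 (adjusted p up to 0.165), and GOT2 in every fit but that without 400 mg/kg/day replicate 4 (adjusted p up to 0.171).

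The next rises are of genes outside these pathways. The chemokine CCL15 read 1399, 648 and 303 in vehicle and 2353, 3239.5, 3070.2 and 1856 in treated animals (1.95 ± 0.36, adjusted p = 0.00353), alone among 20 represented chemokines and cytokines. The tight junction protein CLDN10 read 34.3, 45.4 and 9.60 against 298, 71.0, 230.1 and 439.6, from a vehicle mean below the filter's intensity (2.45 ± 0.53, adjusted p = 0.0106). The cold-inducible RNA-binding protein RBM3 read 1362, 1357 and 1707 against 4280.4, 2714, 4471 and 2570.4 (1.20 ± 0.24, adjusted p = 0.00495). In these 3 genes treated animals were wholly above vehicle. CD63, a tetraspanin of late endosomes and lysosomes, rose by 1.13 ± 0.20 (0.0021), the endosomal LITAF by 0.92 ± 0.16 (0.00152) and the autophagosome protein MAP1LC3B by 1.00 ± 0.21 (0.0101, and 0.35 in its other tested probe set). SAT1, which acetylates polyamines, rose by 0.85 ± 0.15 (0.00236), but its other tested probe set differed by 0.38, and the call was lost with the mean of both. AZIN1, which protects the polyamine enzyme ornithine decarboxylase, rose by 1.23 ± 0.32 (0.0417, and 0.39 and 1.04 in its other tested probe sets). GALT, which converts galactose 1-phosphate, rose by 1.19 ± 0.22 (0.00353) and the glycogen branching enzyme GBE1 by 1.01 ± 0.21 (0.00833). The short chain dehydrogenase DHRS7 rose by 1.12 ± 0.19 (0.00126) and HTATIP2 by 1.05 ± 0.21 (0.00577). When single animals were dropped, the call ended for CLDN10 without vehicle replicate 3 (adjusted p = 0.0753), MAP1LC3B without vehicle replicate 2 or 400 mg/kg/day replicate 1 (adjusted p up to 0.0669), AZIN1 in every fit but that without vehicle replicate 3 (adjusted p up to 0.335), and GBE1 without vehicle replicate 1 (adjusted p = 0.0769).

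In the secretory pathway and endoplasmic reticulum few genes rose. HERPUD1, which helps remove misfolded proteins from the reticulum, rose by 1.16 ± 0.30 (adjusted p = 0.0381), alone among 19 chaperone and unfolded protein response genes. SEC61B of the translocation channel rose by 0.89 ± 0.22 (0.0306), RER1, a retrieval receptor, by 0.76 ± 0.18 (0.0298, and 0.59 in its other tested probe set), and ALG8 of N-glycan assembly by 1.11 ± 0.25 (0.0143). ST6GAL1, which adds sialic acid to plasma glycoproteins, fell by 0.76 ± 0.19 (0.0358). The chaperonin subunit CCT5 rose by 1.05 ± 0.27 (0.0425). Apart from that of ALG8, which ended without vehicle replicate 1 only, each of these calls ended in at least 4 of the 7 fits that left out 1 animal.

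**Figure D3:**
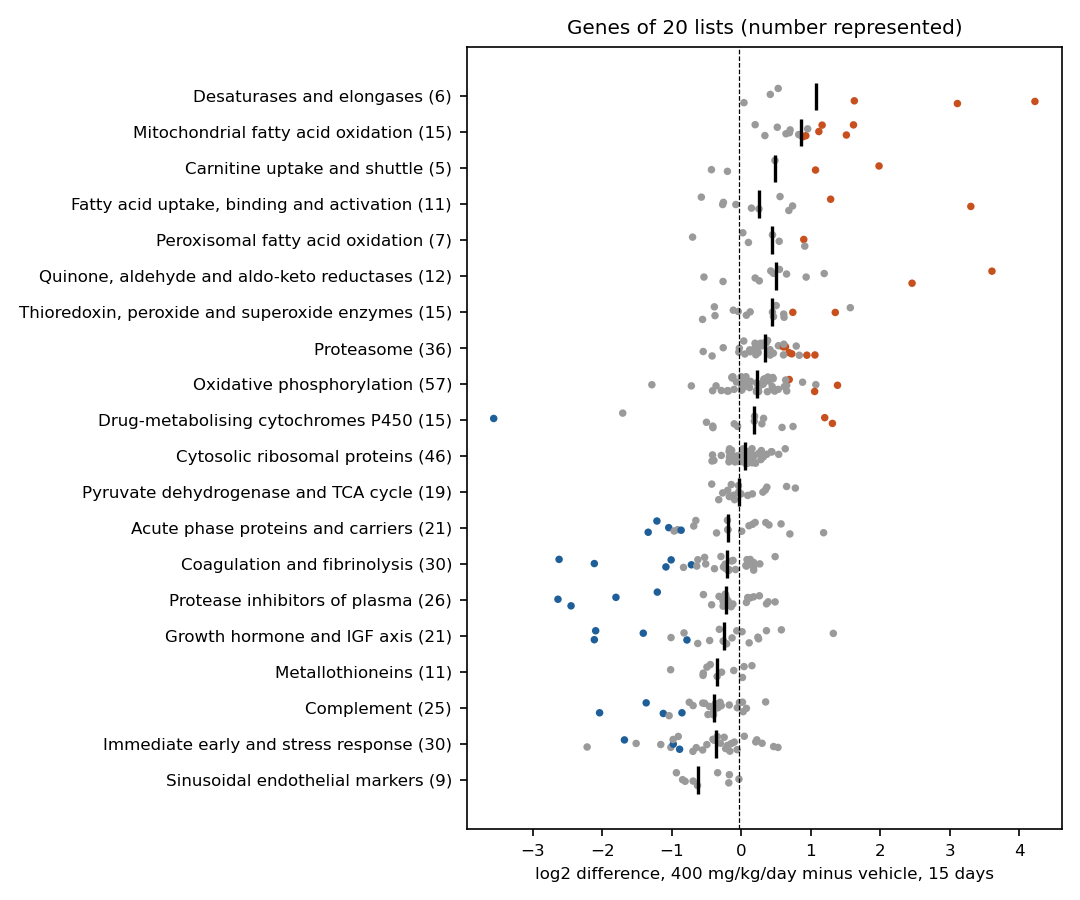
Log2 differences (400 mg/kg/day minus vehicle, 15 days) of the genes of 20 lists, each point 1 represented gene, orange if called higher, blue if called lower and grey otherwise, with a black bar at the list's median and a dashed line at the median of all genes (-0.03). Desaturases and mitochondrial fatty acid oxidation have the medians farthest to the right, at 1.08 and 0.86, and endothelial markers the one farthest to the left, at -0.63, with 0 of its genes called.

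Growth hormone drives the liver to secrete IGF1, which circulates bound to IGFBP3 and the acid-labile subunit IGFALS. All 3 genes of this complex fell. The list drawn up for this axis had 4 falls and 0 rises among 21 represented genes (median -0.26). It also held HGFAC, which acts on another growth factor and made up the remaining fall. IGFALS read 851, 1619.5 and 1454 in vehicle and 264, 269, 243 and 369 in treated animals (-2.10 ± 0.33, adjusted p = 0.000596). IGF1 read 1277, 1378 and 1176 against 273, 577, 408 and 743 (-1.41 ± 0.30, adjusted p = 0.0106), and its other tested probe sets differed by -1.70 and -1.98. In both genes every treated animal was below every vehicle animal. IGFBP3 read 879, 602 and 683 against 308, 461, 532 and 362 (-0.78 ± 0.19, adjusted p = 0.0305). Its other tested probe set differed by -0.31, and the call was lost with the mean of both. HGFAC, the plasma protease that activates hepatocyte growth factor, read 1731, 1808 and 1821 against 375, 583, 349 and 333 (-2.12 ± 0.21), the fall with the smallest adjusted p, 3.95e-06. The growth hormone receptor GHR (-0.63 ± 0.21, 0.148) and the feedback inhibitor SOCS2 (-1.01 ± 0.39, 0.235) were not called, with separated groups. IGFBP2 stood in the other direction (1.32 ± 0.53, 0.268) and was not called. Refits that each dropped 1 animal ended the call for IGF1 without vehicle replicate 2 or 400 mg/kg/day replicate 1 (adjusted p up to 0.0538) and IGFBP3 in every fit but those without vehicle replicate 2 or 400 mg/kg/day replicate 2 or 3 (adjusted p up to 0.197).

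Plasma protease inhibitors had 4 falls and 0 rises among 26 represented genes, with a median of -0.22. PZP, a broad protease trap related to alpha-2-macroglobulin, read 1078, 1123 and 1213 in vehicle and 93.7, 285, 98.0 and 295 in treated animals (-2.64 ± 0.51, adjusted p = 0.0047). Treated replicates fell into a lower and a higher pair, both far below vehicle. SPP2, a secreted phosphoprotein of the cystatin family, read 233, 359 and 261 against 60.9, 43.9, 41.5 and 16.2 (-2.45 ± 0.37, adjusted p = 0.000403), with treated animals near the filter's intensity of 39.7. ITIH2, a heavy chain of the inter-alpha-trypsin inhibitors, read 2357, 2863 and 2462 against 1151, 1150.3, 1151 and 939.8 (-1.21 ± 0.23, adjusted p = 0.00415). The metalloproteinase inhibitor TIMP1 read 285, 173 and 143 against 40.5, 45.1, 40.5 and 49.1 (-1.81 ± 0.42, adjusted p = 0.0228). Alpha-1-antitrypsin, SERPINA1, was not called (-0.26 ± 0.16, 0.564). The call was lost for TIMP1 in every fit but those without vehicle replicate 3 or 400 mg/kg/day replicate 2 or 4 (adjusted p up to 0.151).

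Coagulation and fibrinolysis had 5 falls and 0 rises among 30 represented genes, with a median of -0.21. FGL1, a fibrinogen-like protein secreted by hepatocytes, read 1061, 2911 and 3734 in vehicle and 217, 224, 329 and 949.7 in treated animals (-2.62 ± 0.53, adjusted p = 0.00643). Vehicle replicates differed widely and the highest treated animal, replicate 4, came close to the lowest vehicle animal. The contact system proteins F12 and prekallikrein, KLKB1, both fell. F12 read 4367, 2978 and 2415 against 1319, 1761, 1763 and 1163 (-1.09 ± 0.22, adjusted p = 0.00669). KLKB1 read 347, 344 and 399 against 204, 229, 166 and 111 (-1.01 ± 0.25, adjusted p = 0.0316). F7, which starts clotting with tissue factor, read 798, 842 and 791 against 396, 502, 515 and 542 (-0.72 ± 0.16, adjusted p = 0.018). HGFAC, also counted in the growth hormone list, was the fifth fall. PRCP, which cleaves prekallikrein and angiotensins, also fell (-1.20 ± 0.31, 0.0377). F11 was not called (-0.83 ± 0.28, 0.153) and the fibrinogen chains were not called either. In the 7 fits that each dropped 1 animal, the call was lost for FGL1 without vehicle replicate 3 (adjusted p = 0.0514), F12 without vehicle replicate 1 (adjusted p = 0.081), KLKB1 in every fit but those without 400 mg/kg/day replicate 1 or 2 (adjusted p up to 0.112), F7 without vehicle replicate 1 or 2 or 400 mg/kg/day replicate 1 (adjusted p up to 0.0748), and PRCP in every fit but those without 400 mg/kg/day replicate 1 or 4 (adjusted p up to 0.132).

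Complement had 4 falls and 0 rises among 25 represented genes, of which 21 were below 0, with a median of -0.40. Of the chains of C8, which inserts into target membranes, C8B read 473, 401 and 304 in vehicle and 108, 165, 156 and 136 in treated animals (-1.37 ± 0.25, adjusted p = 0.00315). C8A read 578, 946 and 725 against 250.0, 409, 278 and 408 (-1.12 ± 0.24, adjusted p = 0.00965). These 2 genes are next to each other on chromosome 1 of the same macaque annotation, and the third chain, C8G, was not called (-0.17 ± 0.25, 0.859). CFB, the protease of the alternative pathway, read 6052, 5749 and 6119 against 3227, 2851, 3072 and 4159.8 (-0.86 ± 0.15, adjusted p = 0.00271). CFHR4, a factor H-related protein with close relatives in sequence, read 369, 644 and 381 against 148, 22.8, 126 and 165 (-2.04 ± 0.51, adjusted p = 0.0334). In these 4 genes all treated animals were below vehicle. C2 (-0.46 ± 0.15, 0.148), CFD (-0.56 ± 0.17, 0.101) and the lectin FCN2 (-1.04 ± 0.33, 0.118) were not called, with separated groups. With 1 animal left out, calls were lost for C8A without vehicle replicate 2 (adjusted p = 0.0798) and CFHR4 in every fit but those without 400 mg/kg/day replicate 1, 3 or 4 (adjusted p up to 0.158).

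Acute phase proteins and carriers had 4 falls and 0 rises among 21 represented genes, with a median of -0.20. Hemopexin, HPX, which binds free haem, read 12901, 9689 and 10834 in vehicle and 3181, 3830.1, 4579 and 6451 in treated animals (-1.34 ± 0.27, adjusted p = 0.00675). Fibronectin, FN1, read 6247, 5421 and 4572 against 2289, 2147, 2043 and 2799 (-1.22 ± 0.23, adjusted p = 0.00415), and its other tested probe sets differed by -1.60 and -0.73. Angiotensinogen, AGT, read 567, 508 and 492 against 227, 219.6, 284 and 252 (-1.05 ± 0.20, adjusted p = 0.0047). The sex hormone carrier SHBG read 1530.0, 1131 and 990.1 against 513, 490.0, 857 and 819.8 (-0.87 ± 0.21, adjusted p = 0.0265). The secreted chemerin precursor RARRES2 fell as well (-0.77 ± 0.17, 0.0132). Haptoglobin, HP, was not called (-0.92 ± 0.31, 0.156). When single animals were dropped, the call ended for HPX without vehicle replicate 1 (adjusted p = 0.0534), SHBG in every fit but those without vehicle replicate 3 or 400 mg/kg/day replicate 3 or 4 (adjusted p up to 0.191) and RARRES2 without vehicle replicate 1 or 3 (adjusted p up to 0.0832).

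GNMT, which uses surplus S-adenosylmethionine in hepatocytes, read 1255, 1328 and 1077 in vehicle and 855, 607, 669 and 451 in treated animals (-0.93 ± 0.17, adjusted p = 0.0029), the 1 fall among 16 represented genes of methyl group metabolism. MAT2A (-0.89 ± 0.27, 0.101) and the cysteine dioxygenase CDO1 (-0.94 ± 0.30, 0.118) were not called, with separated groups. The vitamin C transporter SLC23A2 fell by 1.14 ± 0.30 (0.041), and the glucosylceramide synthase UGCG by 0.91 ± 0.21 (0.0221, and -1.03 in its other tested probe set). With 1 animal left out, calls were lost for SLC23A2 in every fit but those without vehicle replicate 3 or 400 mg/kg/day replicate 3 (adjusted p up to 0.23) and UGCG in every fit but those without vehicle replicate 3 or 400 mg/kg/day replicate 2 or 3 (adjusted p up to 0.116).

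Among 30 represented immediate early and stress genes 3 fell and 0 rose, 24 were below 0, and the median was -0.37, beside -0.03 over all genes. DUSP1, a phosphatase that switches off MAP kinases, read 1729, 1249 and 1436 in vehicle and 647, 363, 577 and 283 in treated animals (-1.68 ± 0.36, adjusted p = 0.00978). ZFP36, which destabilises cytokine mRNAs, read 544, 552 and 439.7 against 251, 191, 265 and 308 (-0.98 ± 0.19, adjusted p = 0.0049). CEBPB, a transcription factor of the acute phase response, read 5128, 5731 and 4789.5 against 2835, 2835, 4125 and 1854 (-0.89 ± 0.22, adjusted p = 0.0339). In these genes the treated animals lay wholly below vehicle. JUNB had the lowest difference of the list and was not called (-2.22 ± 0.65, adjusted p = 0.0805), with 373, 508 and 605 in vehicle and 22.5, 125, 132 and 152 in treated animals. FOS (-0.70 ± 0.42, 0.552) and RHOB (-1.51 ± 0.60, 0.27) were not called either.

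The transcription factor MAF read 1435, 1035 and 1538 in vehicle and 584, 469.8, 651 and 626 in treated animals (-1.17 ± 0.24, adjusted p = 0.00669), and its other tested probe set differed by -0.73. HES1, a repressor that Notch induces, read 543, 868 and 329 against 199, 163, 363 and 117 (-1.40 ± 0.37, adjusted p = 0.0448), and here the groups overlapped. NFYA, a CCAAT-binding subunit, fell by 1.77 ± 0.42 (0.0239) to a treated mean below the filter's intensity. The orphan receptor NR2F6 fell by 0.71 ± 0.18 (0.0375), with -0.51 and 0.10 in its other tested probe sets. The coregulator CITED2 fell by 0.81 ± 0.19 (0.0261). For KLF11 the probe sets disagreed, at -1.25 ± 0.32 for the called one (0.0358) and 0.78 for the other. Of 26 represented hepatocyte transcription factors and nuclear receptors 3 fell, 0 rose and 22 were below 0, and those that fell were CEBPB, NR2F6 and NFYA. Refits that each dropped 1 animal ended the call for DUSP1 without vehicle replicate 1 (adjusted p = 0.0705), CEBPB in every fit but that without 400 mg/kg/day replicate 3 (adjusted p up to 0.135), HES1 in every fit but those without vehicle replicate 3 or 400 mg/kg/day replicate 3 (adjusted p up to 0.247), NFYA without vehicle replicate 1 or 3 or 400 mg/kg/day replicate 1 (adjusted p up to 0.0978), NR2F6 in every fit but those without vehicle replicate 2 or 400 mg/kg/day replicate 3 (adjusted p up to 0.211), CITED2 in every fit but those without vehicle replicate 2 or 400 mg/kg/day replicate 2 or 3 (adjusted p up to 0.165), and KLF11 in every fit but those without 400 mg/kg/day replicate 2 or 3 (adjusted p up to 0.131).

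Of 43 represented cytoskeleton and junction genes CLDN10 was the 1 that rose, and TMSB4X and PCDH9 were the 2 that fell. VCAM1, an adhesion molecule of activated endothelium, read 147, 218 and 205 in vehicle and 58.4, 64, 101 and 64.9 in treated animals (-1.23 ± 0.26, adjusted p = 0.00965), and its other tested probe set differed by -1.21. The actin-binding TMSB4X read 2126, 2091 and 1909 against 1168, 949, 1228 and 1429 (-0.78 ± 0.16, adjusted p = 0.00675). Non-muscle myosin MYH10 fell by 1.19 ± 0.29 (0.0316), the scaffold IQGAP2 by 0.83 ± 0.22 (0.0468, and -0.90 in its other tested probe set) and the protocadherin PCDH9 by 2.18 ± 0.56 (0.0377) to a treated mean below the filter's intensity. The matrix gene ECM2 was called at -1.62 ± 0.41 (0.0339), but its other tested probe set differed by -0.04. In the 7 fits that each dropped 1 animal, the call was lost for VCAM1 without vehicle replicate 2 (adjusted p = 0.0635), MYH10 in every fit but that without vehicle replicate 2 (adjusted p up to 0.227), IQGAP2 in all 7 fits (adjusted p up to 0.152), PCDH9 in all 7 fits (adjusted p up to 0.253), and ECM2 in every fit but those without vehicle replicate 3 or 400 mg/kg/day replicate 2 (adjusted p up to 0.164).

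In bulk liver RNA, fewer cells of a type and less RNA per cell cannot be told apart, so markers of the liver's cell types were summed in each animal. Macrophage markers summed to 3981 to 5478 in vehicle and 2578 to 3523 in treated animals, over 8 of 12 genes. Endothelial markers summed to 2708 to 3012 and 1855 to 2342, over 9 of 13 genes. Stellate cell and fibroblast markers summed to 3129 to 5980 and 2095 to 2981, over 10 of 14 genes. In these 3 lists treated animals lay wholly below vehicle. The hepatocyte sum was lower in all treated animals too (93583 to 105259 against 70415 to 83507, over 11 of 12 genes), but 6 of its genes were above 0 and 5 below, with a median of 0.00. Much of the drop in that sum was CYP2E1, which averaged 13669 ± 1635 in vehicle and 1479 ± 859 in treated animals (SD, n = 3 and n = 4). With 4 against 3 animals the smallest two-sided exact permutation p is 0.0571, and each of the 4 sums gave it. Most single markers were not called: of the macrophage list 0 of 8, of the endothelial list 0 of 9 and of the stellate list 1 of 10, TIMP1. The lists for macrophages, endothelium and stellate cells had 7, 9 and 8 genes below 0. The part of these shifts in the falls of VCAM1, TMSB4X, TIMP1, FN1, ECM2 and MYH10 was not tested.

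Among macrophage markers the largest differences were those of the scavenger receptor MARCO (-1.33 ± 0.50, adjusted p = 0.223) and CD5L (-1.32 ± 0.38, 0.0774), while the macrophage gene CD68 stood at -0.00 ± 0.29 (0.998). In the hepatocyte list CYP2E1 fell and CYP3A4 rose. Sums of the other lists overlapped between the groups: cholangiocytes 409 to 479 against 257 to 421, T and NK cells 1092 to 1178 against 1076 to 1314, B and plasma cells 914 to 1174 against 699.8 to 955, neutrophils 627 to 907 against 743 to 908, and red cells 2024 to 3089 against 1618 to 2416. Their exact permutation p ranged from 0.114 to 0.629.

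**Figure D4:**
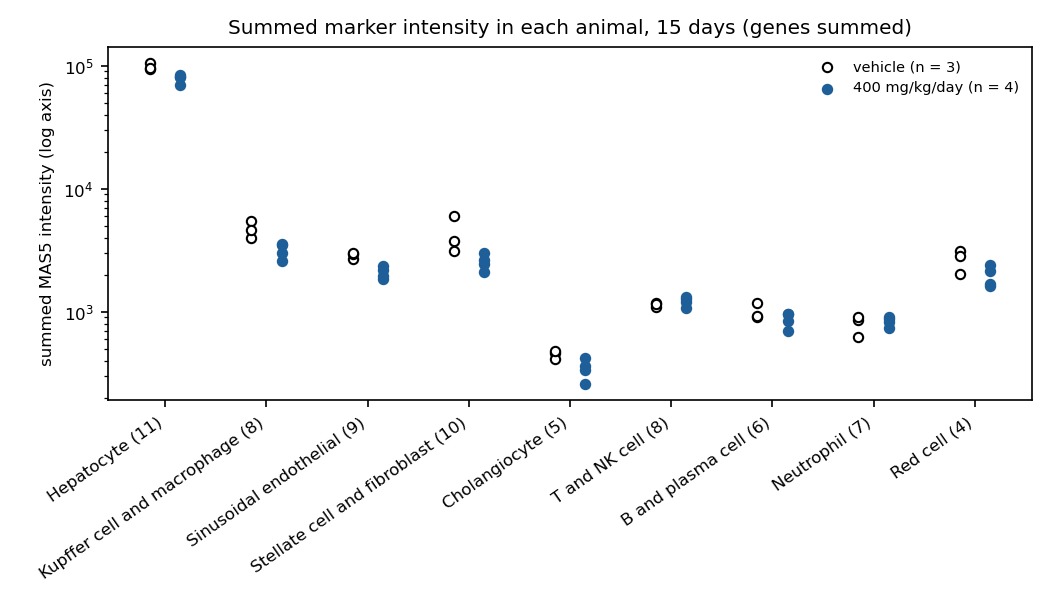
Summed MAS5 intensity on a log axis of the marker genes of 9 cell types in each of the 3 vehicle (open circles) and 4 treated animals (filled circles) at 15 days, with the number of genes summed in brackets. Treated animals lie below all vehicle animals in the macrophage, endothelial and stellate sums and in the hepatocyte sum, of whose 11 genes 6 were above 0 and 5, CYP2E1 among them, below. The ranges overlap for the other lists.

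The 400 mg/kg/day animals were also set against the 4 animals at 150 mg/kg/day, a test of whether the highest dose differed from the next. In this comparison 37 of 7535 probe sets were called (0.491%), 19 higher and 18 lower. By the probe set that represented each gene, 9 genes were higher and 10 lower, 0.165% and 0.183% of the 5462. Single animals moved this count. Dropping replicate 3, 2 or 4 of the lower dose left 4, 10 or 18 calls, and dropping replicate 1, 2 or 4 of the higher dose left 11, 22 or 21. Genes of fatty acid oxidation were not among the calls. ACAA2 differed by 0.01 ± 0.19 (adjusted p = 0.992), HADHB by -0.06 ± 0.27 (0.963) and HADHA by -0.22 ± 0.20 (0.763). Their 15-day means at vehicle, 3, 30, 150 and 400 mg/kg/day lay, for ACAA2, at 3864 ± 1314, 4481 ± 539, 5688 ± 1337, 10719 ± 2133 and 10676 ± 908 (SD, n = 3 for vehicle and n = 4 for each dose).

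Higher than at 150 mg/kg/day were AKR1B10 (1.69 ± 0.37, adjusted p = 0.0374), ALDH1A1 (1.28 ± 0.24, 0.0163), ELOVL5 (1.27 ± 0.24, 0.0205), TXN (0.87 ± 0.17, 0.0225) and the integrin ITGA6 (0.86 ± 0.17, 0.0205), all of which had also risen over vehicle. The other tested probe sets of ITGA6 differed from vehicle by -0.35 and 0.21, against 0.72 for the called one. Its call against vehicle was lost in 6 of 13 other settings, and in 4 of the 7 fits that each left out 1 animal, those without vehicle replicate 1 or 3 or 400 mg/kg/day replicate 1 or 4 (adjusted p up to 0.145). ALDH1A1 averaged 2708 ± 465 at 150 and 6677 ± 1433 at 400 mg/kg/day (SD, n = 4 each). The exosome subunit EXOSC2 (1.90 ± 0.33, 0.0116), the complex I subunit NDUFA2 (0.86 ± 0.19, 0.0374), the ribosomal RPL29 (0.70 ± 0.15, 0.0374) and ELOB (0.74 ± 0.17, 0.0398) were higher too, but not called against vehicle. At 150 mg/kg/day they lay below vehicle, by -2.32, -0.40, -0.54 and -0.49 in this order. At 400 mg/kg/day they differed from vehicle by -0.42, 0.46, 0.17 and 0.25. EXOSC2 averaged 304 in vehicle, 49.4 at 150 and 238 at 400 mg/kg/day.

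Lower than at 150 mg/kg/day were CYP2E1 (-2.56 ± 0.45, adjusted p = 0.0132), PZP (-2.31 ± 0.47, 0.0238), IGFALS (-1.54 ± 0.30, 0.0215), HGFAC (-0.99 ± 0.19, 0.0205) and CFB (-0.70 ± 0.14, 0.0238), which had also fallen against vehicle. CYP2E1 averaged 7526 ± 3921 at 150 and 1479 ± 859 at 400 mg/kg/day (SD, n = 4 each). At the doses of 3 and 30 mg/kg/day it averaged 17277 ± 3880.4 and 18930.3 ± 4295, beside 13669 ± 1635 in vehicle. PPARA itself was lower at 400 than at 150 mg/kg/day (-0.87 ± 0.19, 0.0361), as was the demethylase KDM2A (-0.86 ± 0.20, 0.0476). PPARA averaged 857 ± 122 at 150 and 461 ± 50.5 at 400 mg/kg/day, against 618 ± 72.2 in vehicle.

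Metallothioneins, small proteins that bind zinc and copper, made up the remaining genes called against 150 mg/kg/day. MT1G averaged 5037 ± 2643 at 150 and 339 ± 247 at 400 mg/kg/day (SD, n = 4 each), a difference of -3.88 ± 0.46 (adjusted p = 0.000172). Its vehicle mean was 621 ± 190.5 (SD, n = 3), and the difference of 400 mg/kg/day from vehicle was not called (-1.02 ± 0.50, adjusted p = 0.412). MT1H (-1.26 ± 0.17, 0.000727) and MT1F (-0.94 ± 0.18, 0.0205) were lower as well. Probe sets of this family can bind each other's transcripts, so the 3 calls are not independent.

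**Figure D5:**
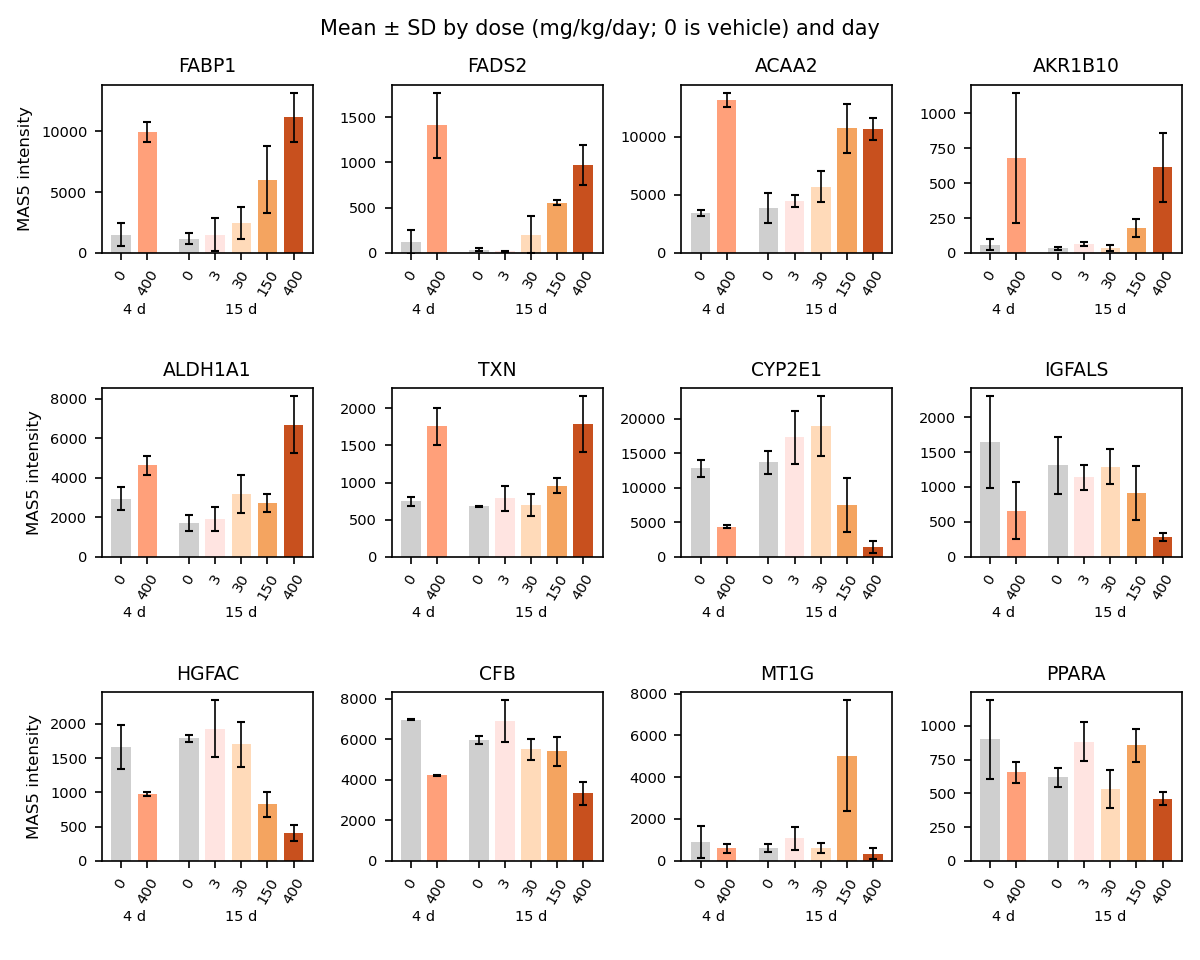
Mean MAS5 intensity of 12 genes in each group, with vehicle written as 0, doses in mg/kg/day and SD as error bars (n = 2 for each group at 4 days, 3 for vehicle and 4 for each dose at 15 days). ACAA2 has like bars at 150 and 400 mg/kg/day, ALDH1A1 and TXN are highest at 400, MT1G is highest at 150, and CYP2E1 is lowest in the 15-day group at 400.

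The lower doses at 15 days, which share the vehicle animals, are given side by side for the genes described above. FABP1 differed from vehicle by 0.03, 0.97, 2.33 and 3.30 at 3, 30, 150 and 400 mg/kg/day. The same differences were -0.69, 1.33, 3.46 and 4.22 for FADS2 and 0.32, 0.55, 1.76 and 2.46 for NQO1. At the highest dose each was largest. HADHA stood at 0.54, 0.55, 1.38 and 1.16. For HGFAC the values were 0.09, -0.09, -1.13 and -2.12. PZP had 0.28, -0.03, -0.33 and -2.64. TIMP1 was below the vehicle animals at every dose, by -1.43, -1.51, -2.03 and -1.81. DUSP1 was likewise lower throughout, at -0.97, -0.74, -0.89 and -1.68. ATP5PF was above vehicle at every dose, at 1.00, 1.40, 1.58 and 1.38, and PGAP2, which acts on lipid anchors of proteins, at 1.16, 1.29, 1.08 and 1.32.

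The same dose after 4 days, in other animals with their own controls, was compared by the difference of the 2 effects. Of 7535 probe sets 0 were called by limma (0.0%), and 254 (3.37%) had an unadjusted p under 0.05. With 2 animals in each 4-day group this test had little precision. Of the 66 genes that rose at 15 days, 63 were above 0 at 4 days, where 44.7% of all genes were, with a median of 0.74. Of the 51 that fell, 47 were below 0 at 4 days, as were 55.3% of all genes, with a median of -0.74.

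HADHB differed from its 4-day controls by 2.06 ± 0.39, ACAA2 by 1.94 ± 0.27, ECH1 by 1.55 ± 0.29 and BDH1 by 1.50 ± 0.30 (n = 2 in each group). CYP2E1 differed by -1.54 ± 0.64 and IGFALS by -1.38 ± 0.43 at 4 days. ALDH1A1 stood at 0.66 ± 0.33 after 4 and 1.96 ± 0.25 after 15 days, but the difference between the days was not called (1.30 ± 0.42, adjusted p = 0.999). For HGFAC it was not called either (-1.37 ± 0.34, adjusted p = 0.999). The 3 rises that were below 0 at 4 days were PGAP2, QPCT and ELAVL3, with 4-day values of -0.15, -0.50 and -0.06. The 4 falls that were above 0 at 4 days were PCDH9, KLF11, ST6GAL1 and RBM14, with 1.01, 0.23, 0.01 and 0.01. These genes were chosen after their values were seen. With 1 animal left out, the 15-day call was lost for PGAP2 without vehicle replicate 1 or 3 (adjusted p up to 0.119), QPCT in all 7 fits (adjusted p up to 0.141), ELAVL3 in every fit but that without vehicle replicate 3 (adjusted p up to 0.262), and ST6GAL1 in all 7 fits (adjusted p up to 0.16).

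The called genes were chosen on these animals, so values of single animals over them are a description. Against the vehicle mean, the median rise of the 66 genes was 1.18, 1.01, 1.13 and 1.05 in treated replicates 1 to 4, and the median fall of the 51 genes was -1.17, -1.13, -0.96 and -1.19. Replicate 1 was the highest animal in 28 of the rises, replicate 3 in 18, replicate 4 in 12 and replicate 2 in 8. Among the falls replicate 1 was the lowest in 21, replicate 4 in 14, replicate 2 in 9 and replicate 3 in 7.

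Whichever animal was left out, 39 of the 117 called genes kept their call, and 35 of these kept it under every other setting too. Among the 35 were the rises of FADS2, AKR1B10, FABP1, SCD, NQO1, ALDH1A1, TXN, HADHB, ACAA2, HADHA and ETFA and the falls of CYP2E1, PZP, SPP2, HGFAC, IGFALS, ITIH2, FN1, AGT, C8B, CFB, MAF and ZFP36. At the other end, 47 of the 117 lost their call in at least 4 of the 7 fits.

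Lists of other processes held no calls, where 2.14% of all genes were called. With that share a list of this size can hold 0 calls without differing from other genes. Of cytosolic ribosomal proteins 0 of 46 were called (median 0.05), of cell cycle and replication genes 0 of 34 (-0.18), of DNA repair genes 0 of 34 (0.01), of apoptosis genes 0 of 27 (0.01) and of interferon and antigen presentation genes 0 of 37 (-0.04). Of the cell cycle list, another 31 genes were too dim to be tested.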

How the data were processed

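The authors deposited 1 intensity per probe set and array, on a linear scale, made with MAS5 according to the submitters' processing notes. Its version and settings are not given in the sources used here, and detection calls were not used. Arrays shared 1 scale, so none was added. After 67 control probe sets were left out, log2(intensity + 16) was taken, and the 7535 of 12558 probe sets whose mean reached the 40th percentile were kept for testing. A model of 7 group means was fitted to all 23 arrays with limma 3.58.1 in R 4.3.3 (intensity trend, 16 residual degrees of freedom), with two-sided p-values and Benjamini-Hochberg adjustment over these 7535. The number of arrays limits the precision.

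A gene was represented by its tested probe set of highest mean, among the 10943 probe sets naming 1 gene (545 named several and 1070 none). Lists of 60 pathways and cell types held 1609 genes, of which 1051 were represented and 233 only below the filter. The arrays compared, the lists and the rule for named genes (the 20 largest called changes each way, up to 4 members a list, genes of fatty acid, reductase and P450 lists, and other called genes or list members with their values) were chosen with earlier results of these data known. The fit was tested on simulated data. Alternatives covered the pseudocount, filter, scaling, variance model, array weights, a block for replicate number, separate fits, probe set summary and each animal left out. Promoter and protein sequences were not used here.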

Additional observations from a re-analysis of the deposited data

Results flagged for a closer look

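In 14 of the 178 genes checked, 1 of the 4 animals at 400 mg/kg/day stood apart from the other 3 by Dixon's test at the 95% level. Chance alone flags about 1 in 20 groups. The number given for each gene is that animal's intensity. Treated replicate 4 stood apart in 7 genes. It was the lowest for ALDH1A1 (4538), FADS2 (647), ITIH2 (939.8) and KLF11 (37.0), and the highest for AZIN1 (794), FGL1 (949.7) and MPC2 (1583). Treated replicate 1 was the highest for MAP1LC3B (597) and SOCS2 (146) and the lowest for CPT1A (129.7) and FCN2 (62.6). Treated replicate 2 was the highest for HGFAC (583). Treated replicate 3 was the highest for VCAM1 (101) and MT1G (706). Where these genes were called, treated and vehicle animals did not overlap even with the animal that stood apart. The cause was not tested.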

How the results depend on the processing

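Against the 15-day vehicle animals (95 probe sets higher and 66 lower), the counts became 149 and 103 with array weights, 109 and 40 with arrays brought to a common median, and 43 lower without a variance trend. That scaling moved the median of all probe sets from -0.03 to 0.07. It ended the calls of the plasma protein and IGF falls F7, KLKB1, PRCP, SHBG, RARRES2 and IGFBP3. Calls of CEBPB, HES1, CITED2, NR2F6, KLF11, ZNF146, UGCG, SLC23A2 and ST6GAL1 ended with it as well. So did those of MYH10, IQGAP2, ECM2, EXT1, DPYSL2, MTSS1, MYCBP2, GPRASP1 and ZCCHC24. The called rises kept their calls under it. With the mean of all tested probe sets of a gene, calls ended for the rises SAT1, MAP1LC3B, SAP18 and ITGA6. The falls IGFBP3, UGCG, ECM2, KLF11, NR2F6 and EXT1 lost theirs in that setting as well. Leaving out each animal gave 54 to 81 higher and 33 to 60 lower. Many calls against vehicle ended when the compared groups were fitted alone. Among them were those of COX6A1, CYP3A4 and GNMT, which had held whichever animal was left out. Those of BDH1, GPX4, HSD17B4, VCAM1, F7, KLKB1, IGFBP3, PSMB2, PSMB4 and PSMD2 ended there too. Such calls rest in part on the spread of the other arrays. Against 150 mg/kg/day (37 called) the counts were 24 without the filter, 9 without a variance trend, 6 with the compared groups alone, 21 with the 15-day arrays alone (chosen after seeing the data) and 4 to 28 without 1 animal. The difference between the days had 0 calls in these fits. With a replicate block 91 were higher, 58 lower, 35 called against 150 mg/kg/day and 0 between the days. Same-numbered animals did not deviate together (correlations of 0.0169, -0.0373 and -0.0118), so the numbers only name animals. The sign of CPT1A turned without vehicle replicate 1, its range without 1 animal being -0.040 to 0.82. Values near 0 turned too: CD68 came to 0.10 with the common median, 0.0051 with quantile normalization, 0.048 with the block and -0.055 to 0.039 without 1 animal, and ALB to -0.016 with array weights, -0.26 as the mean of its probe sets and -0.048 to 0.054 without 1 animal. The cause of these shifts was not tested. Of the values of single genes over all settings, 3230 of 3951 kept direction and side of the threshold, 657 lost the call and 51 gained it. Few animals and dim signals limit what could be called.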

Other observations

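Some genes called at 400 mg/kg/day against vehicle at 15 days belong to no group described so far. Among the rises were RXYLT1, a glycosyltransferase that modifies dystroglycan (1.36 ± 0.36, adjusted p = 0.0468), the myosin light chain MYL12B (1.12 ± 0.26, 0.0189), the tetraspanin TSPAN3 (0.94 ± 0.21, 0.0166), the I-kappa-B kinase CHUK (0.76 ± 0.19, 0.0311) and the mitochondrial rhodanese TST (0.76 ± 0.19, 0.0375). SAP18 was called at 0.79 ± 0.20 (0.0334), but its other tested probe sets differed by -0.05 and 0.13. Among the falls were the zinc finger gene ZNF146 (-1.11 ± 0.26, 0.0215), the RNA-binding RBM14 (-1.17 ± 0.23, 0.0047), DPYSL2 (-0.98 ± 0.21, 0.0133), MTSS1 (-0.83 ± 0.20, 0.0239), the ubiquitin ligase MYCBP2 (-0.83 ± 0.20, 0.025), GPRASP1 (-1.14 ± 0.29, 0.0339) and ZCCHC24 (-0.70 ± 0.17, 0.0322). RBM14 kept its call whichever animal was left out, while the calls of the others ended in at least 2 of the 7 fits.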
